A study of Triticum aestivum with 13 samples.

Results

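The comparison set TugelaDn1 against TugelaDn5, a pair of wheat lines that resist the Russian wheat aphid, and covered all 61179 probe sets of the array that remained after removal of control probe sets. Of the 13 arrays of the series, 7 were from these lines: 3 from TugelaDn1 and 4 from TugelaDn5, which made 3 biological repeats of each because TugelaDn5 repeat 3 was hybridised on 2 arrays that were averaged. The lines were chosen by their labels and not by any measured value. A second view took the 19975 probe sets whose mean log2 intensity was 8 or more in either line.

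All 4 lines of the series share the cultivar Tugela, and the series title calls them near isogenic. Tugela itself is susceptible, TugelaDn1 carries Dn1 with the host response antibiosis, TugelaDn2 carries Dn2 with the host response tolerance, and TugelaDn5 carries Dn5 with antibiosis and antixenosis. Plants of every line, TugelaDn1 and TugelaDn5 alike, were infested at the 3-leaf stage with 10 aphids of biotype SA1 without a choice of host, and after 48 h all leaves except the first were taken for RNA. Since plants without aphids were not analysed here, differences present before feeding and differences in the response cannot be told apart, nor can the resistance gene and any other stretch of genome in which the lines differ. The description field of the TugelaDn5 samples, and also that of the TugelaDn2 samples, names TugelaDn1, whereas the remaining labels name the line given here and were used.

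The Russian wheat aphid, Diuraphis noxia, feeds on phloem sap, and on susceptible wheat its feeding causes leaf rolling and pale streaks. Resistance genes of wheat against it carry names starting with Dn. Antibiosis is resistance that lowers the survival or reproduction of the insect, antixenosis is resistance that makes the plant an unattractive host, and tolerance is the ability of the plant to grow on in spite of the insect.

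A probe set of this array is a group of short probes to 1 transcript, and its intensity is given here as log2 after values under 16 were raised to 16, so that 4 is the lowest possible value, the floor. Hybridisation to short probes cannot tell a difference in transcript level from a difference in transcript sequence under the probes, and this holds for every value that follows. Arrays had median intensities of 82.3 to 97.8 and 19.3% to 21.4% of their values under 16. Over 17482 probe sets at a level of 8 or more in both lines, the 2 hybridisations of TugelaDn5 repeat 3 differed by a median of 0.08 log2, whereas biological repeats of TugelaDn1 differed by 0.22 to 0.24 and those of TugelaDn5 by 0.18 to 0.21. The leaf origin was visible in rbcl, the large subunit of Rubisco, whose brightest probe sets lay at 16.83 ± 0.31 and 16.74 ± 0.34 in TugelaDn1 and at 16.73 ± 0.18 and 16.72 ± 0.25 in TugelaDn5 (SD, n = 3, as for every ± that is not marked SE). Other probe sets of rbcl were dim, such as TaAffx.128414.190.A1_at, at 4.12 ± 0.21 in TugelaDn1 and 4.49 ± 0.85 in TugelaDn5. One library of another line stood apart: TugelaDn2 repeat 3 was at 8 or more in 6 of 10 probe sets that were bright in TugelaDn5 and dark in TugelaDn1, and the other repeats of TugelaDn2 and those of Tugela in 0 of 10. TugelaDn2 repeat 3 entered the comparison only through the shared estimate of spread.

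TugelaDn1 and TugelaDn5 differed in 1158 of 61179 probe sets (1.89%) at a limma adjusted p under 0.05, which is what "called" means throughout. Of these, 727 (1.19%) were higher in TugelaDn1 and 431 (0.704%) were higher in TugelaDn5. All 1158 had repeats that did not overlap between the lines, and over all probe sets 8.57% were without overlap and higher in TugelaDn1 and 9.23% without overlap and higher in TugelaDn5. Calls higher in TugelaDn1 were larger, with a median log2 difference of 1.79 against 1.45 for those higher in TugelaDn5. At least 4-fold differences were found for 461 calls, 320 higher in TugelaDn1 and 141 higher in TugelaDn5, and at least 64-fold differences for 27, 17 and 10 of them in the respective line. The median over all probe sets was 0.0 log2. In RNA of whole leaves, fewer cells of a type and less RNA per cell cannot be told apart.

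The excess of calls higher in TugelaDn1, 62.8% of all calls, varied with the settings, for reasons that were not tested. With the floor at 4, it was 60.6% of the 505 calls at a level of 8 or more in both lines. When p was adjusted only over the 19975 probe sets at 8 or more in either line, it was 50.9% of 2704 calls. That set was chosen with the means that are compared. It includes 1234 probe sets at this level in TugelaDn1 alone and 1259 in TugelaDn5 alone, so this share is a description. When the floor was raised from 4 to 6, 994 calls were higher in TugelaDn1 and 961 in TugelaDn5 (50.8% of 1955 in TugelaDn1), and at a floor of 7 the numbers were 771 and 807 (48.9% of 1578), so that calls higher in TugelaDn5 had gained more. The count rested on single repeats too. It fell to 684 when TugelaDn5 repeat 1 was left out (488 higher in TugelaDn1 and 196 in TugelaDn5), to 694 when TugelaDn5 repeat 2 was (476 and 218) and to 695 when TugelaDn1 repeat 1 was (460 and 235). Without TugelaDn5 repeat 3 it was 863 (600 and 263). Leaving out TugelaDn2 repeat 3 gave 1249 calls, of which 1045 were among the 1158.

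**Figure D1:**
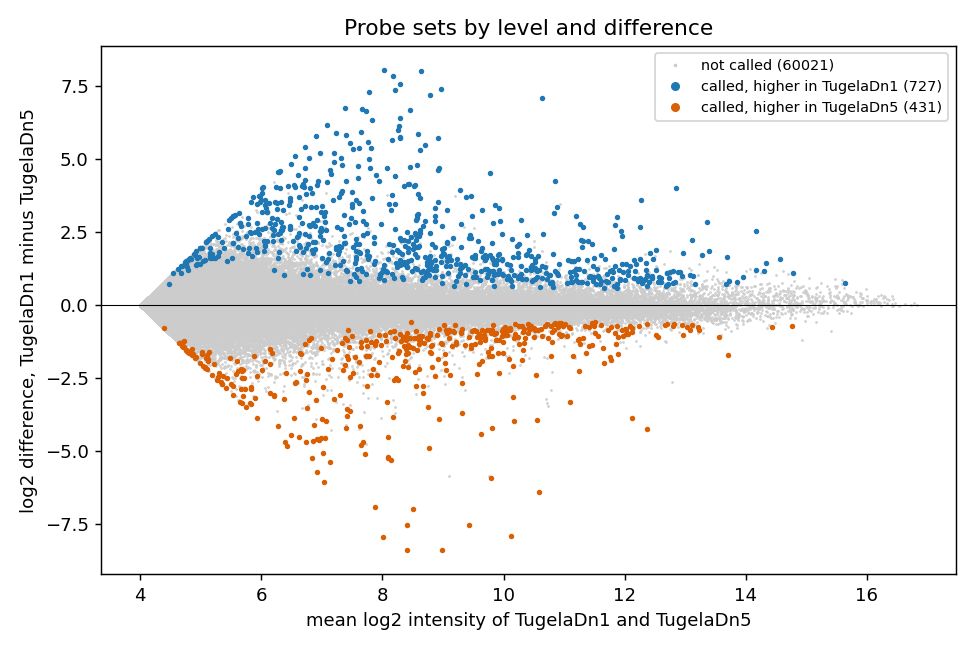
Each point is a probe set, with the mean log2 intensity of TugelaDn1 and TugelaDn5 on the x axis and the log2 difference, TugelaDn1 minus TugelaDn5, on the y axis. The 727 blue points were called higher in TugelaDn1 and the 431 orange points higher in TugelaDn5, and the slanting edges at the left come from the floor of 4.

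Among the 19975 probe sets with a level of 8 or more in either line, 907 were called (4.54%), 571 higher in TugelaDn1 (2.86%) and 336 higher in TugelaDn5 (1.68%). Since a probe set bright in 1 line alone can pass this limit only by differing, the counts were also divided by line. Among 17482 probe sets at 8 or more in both lines, 505 were called (2.89%), 306 higher in TugelaDn1 and 199 higher in TugelaDn5. The other calls came from 1234 probe sets at this level in TugelaDn1 alone, with 265 calls, and from 1259 at this level in TugelaDn5 alone, with 137 calls. Below 8 in both lines, 251 of 41204 were called (0.609%). Precision rose with the level: the 95% confidence interval reached a median of 1.33 log2 to either side at mean levels of 4 to 6, 0.53 at 8 to 10 and 0.35 above 12.

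The sharpest differences were probe sets in which every repeat of 1 line was at 8 or more and every repeat of the other at 5 or less. This applied to 19 probe sets bright in TugelaDn1 and dark in TugelaDn5, and to 10 the other way round. These limits were set after values had been seen, so the numbers are descriptions. The tables used give no gene for any of the 29, and their functions are not known here. The same limits found 0 probe sets in either direction between TugelaDn1 and Tugela, and 0 between TugelaDn1 and TugelaDn2. Against Tugela, 21 probe sets were dark in TugelaDn5 and 18 bright in it. Against TugelaDn2, 17 were dark in TugelaDn5 and 6 bright in it. Such probe sets were thus not particular to the pair TugelaDn1 and TugelaDn5.

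Ta.14507.2.S1_at had the most complete separation among those bright in TugelaDn1. Of the probe sets that share the number 14507, 3 were at a level of 8 or more. Of these 2 were called, and the 1 not called differed by less than 0.5 log2. Ta.14507.2.S1_at read 12.07, 12 and 12.12 in repeats 1, 2 and 3 of TugelaDn1, and the floor of 4 in each repeat of TugelaDn5. All TugelaDn5 repeats were at the floor, so the difference was at least 268-fold (log2 8.07 ± 0.12, SE, adjusted p = 3.59e-09). In Tugela it lay at 12.01 ± 0.09 and in TugelaDn2 at 12.18 ± 0.12 (n = 3 each), near TugelaDn1. Altogether 8 of the 19 had every TugelaDn5 repeat at the floor, among them Ta.5559.1.S1_at, with 9.40, 9.72 and 10.26 in TugelaDn1, and Ta.6952.1.S1_a_at, with 10.60, 10.83 and 10.85. Every repeat of Tugela and TugelaDn2 was also at 8 or more in 14 of the 19.

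Among the 10 bright in TugelaDn5, Ta.6210.1.S1_at read 12.60, 12.55 and 12.62 in the TugelaDn5 repeats and 4.62, 4.0 and 4.04 in those of TugelaDn1, a difference of at least 331-fold (log2 -8.37 ± 0.80, SE, adjusted p = 0.000679). Tugela was dark to dim in it, at 4.80 ± 0.86, whereas TugelaDn2 repeats read 5.76, 4.82 and 8.49. Ta.900.1.S1_at read 12.19, 11.96 and 11.78 in TugelaDn5 and 4.0, 4.15 and 4.0 in TugelaDn1, and the high TugelaDn2 reading was again repeat 3, at 10.97 against 4.22 and 4.0. Ta.12912.1.S1_at was the 1 of the 10 that was not called (log2 -4.86, adjusted p = 0.0939), and TugelaDn2 repeat 3 read 10.07 in it, above every TugelaDn5 repeat. Ta.13549.1.A1_at, by contrast, was at the floor in all TugelaDn1 repeats, at 8.79, 8.71 and 8.99 in TugelaDn5, and at the floor in TugelaDn2 repeat 3. The source of the TugelaDn2 repeat 3 readings was not tested.

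Ta.24954.1.S1_at had the largest called difference of all but misses these limits because TugelaDn1 repeat 1 was at 6.36. The other TugelaDn1 repeats were at the floor and the TugelaDn5 repeats read 13.16, 13.24 and 13.13, so that the lines differed by at least 335-fold (log2 -8.39 ± 0.60, SE, adjusted p = 0.000101).

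**Figure D2:**
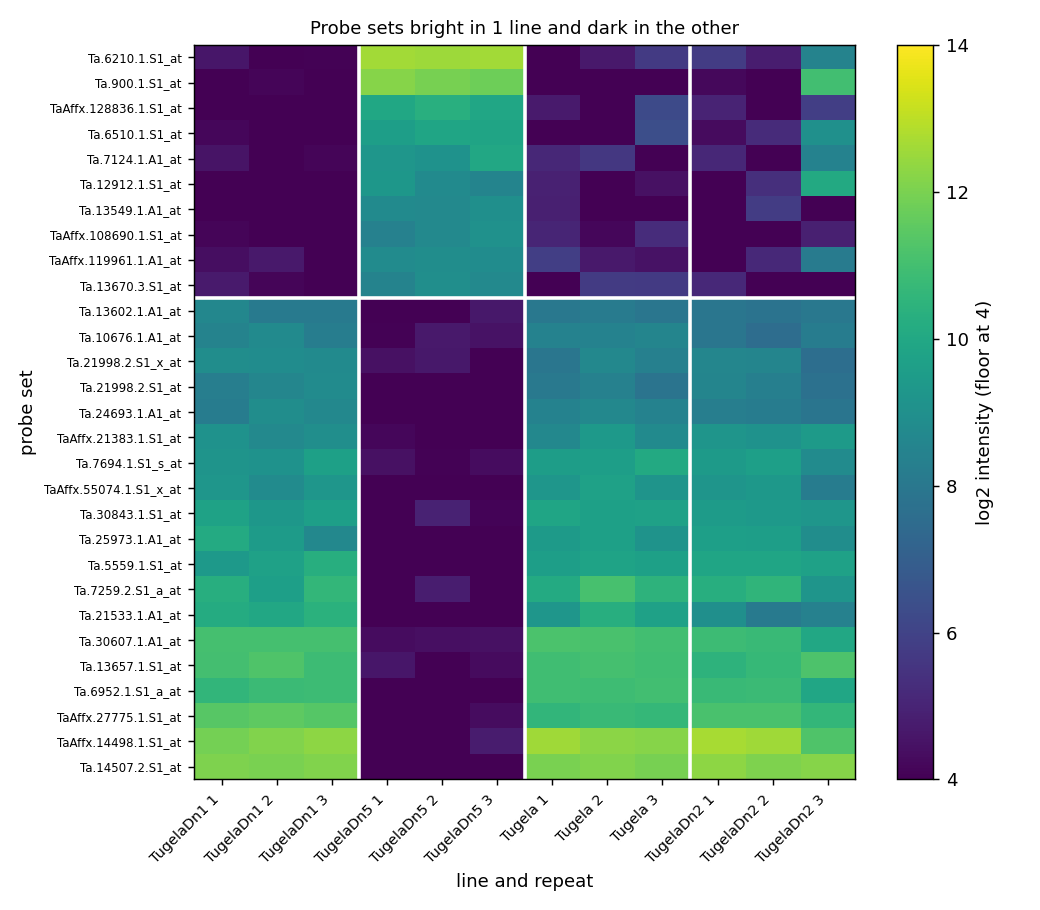
Colour gives the log2 intensity (floor at 4) of 29 probe sets (rows) in each repeat of TugelaDn1, TugelaDn5, Tugela and TugelaDn2 (columns). The upper 10 rows are bright in TugelaDn5 only, apart from TugelaDn2 repeat 3 in 6 of them, and the lower 19 rows are dark in TugelaDn5 only.

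For each called probe set the mean of Tugela, and likewise that of TugelaDn2, was placed between the lines compared, with 0 at the TugelaDn5 mean and 1 at the TugelaDn1 mean. Tugela had a median position of 0.93 and TugelaDn2 of 0.82. Tugela was nearer TugelaDn1 than TugelaDn5 in 1020 of 1158 calls (88.1%), against 53.4% of all probe sets, and TugelaDn2 in 893 (77.1%), against 49.6%. Both were nearer TugelaDn1 in 858 calls (74.1%), against 32.8% of all probe sets, and with TugelaDn2 repeat 3 left out of its mean in 874 (75.5%), against 33.3%. In most calls both other lines were thus nearer TugelaDn1, which does not mean that they equalled it. For calls higher in TugelaDn5, TugelaDn2 had a median position of 0.71, with quartiles of 0.47 and 0.93. Both lay nearer TugelaDn5 in 103 calls (8.89%, against 29.8% of all probe sets). Of 320 calls at least 4-fold higher in TugelaDn1, both lay nearer TugelaDn1 in 294 (91.9%), and of 141 at least 4-fold higher in TugelaDn5 in 110 (78.0%). Taken singly, the repeats of Tugela had median positions of 0.92 to 0.94, TugelaDn2 repeats 1 and 2 of 0.87 and 0.88, and TugelaDn2 repeat 3 of 0.75.

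**Figure D3:**
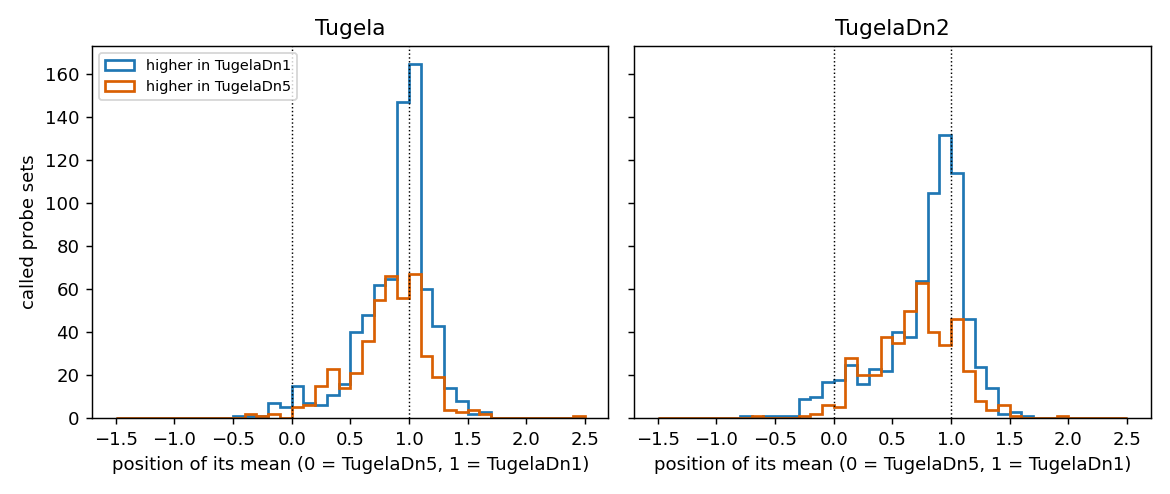
Histograms of the 1158 called probe sets by the position of the Tugela mean (left) and the TugelaDn2 mean (right), where 0 is the TugelaDn5 mean and 1 the TugelaDn1 mean, for calls higher in TugelaDn1 (blue) and in TugelaDn5 (orange). Positions beyond the axis were drawn in its end bins, and the medians were 0.93 for Tugela and 0.82 for TugelaDn2.

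Some transcripts went against this pattern, and they were named after their values were seen. Ta.23352.1.S1_at read 4.62, 5.57 and 4.87 in TugelaDn1 and 12, 12.07 and 11.88 in TugelaDn5, a 125-fold difference (log2 -6.96 ± 0.35, SE, adjusted p = 1.33e-05). TugelaDn2, at 11.41 ± 0.57, lay with TugelaDn5, and Tugela, at 5.66 ± 0.46, with TugelaDn1. Ta.3087.2.A1_at divided the lines in the same way, at 8.59 ± 0.21 in TugelaDn1 and 12.51 ± 0.17 in TugelaDn5 (15.1-fold, adjusted p = 1.74e-05), 8.43 ± 0.11 in Tugela and 12.05 ± 0.39 in TugelaDn2.

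Ta.22984.1.S1_x_at was among the brightest that differed, with 15.05, 14.24 and 15.09 in TugelaDn1 and 12.44, 11.49 and 11.88 in TugelaDn5 (7.25-fold, adjusted p = 0.00349). TugelaDn2, at 11.72 ± 0.44, was as low as TugelaDn5, and Tugela lay between at 13.62 ± 0.42. The call was lost only with TugelaDn1 and TugelaDn5 alone in the fit (adjusted p = 0.0548). TugelaDn1 alone was low in Ta.16101.1.S1_at, with 5.04, 4.0 and 4.13 against 9.07, 8.22 and 9.95 in TugelaDn5 (at least 25.8-fold, adjusted p = 0.00217), 7.31 ± 0.43 in Tugela and 8.13 ± 0.87 in TugelaDn2. It was not called with a floor of 7 (log2 -2.08, adjusted p = 0.0919). TugelaDn1 had the highest mean of the 4 lines in Ta.3249.3.A1_at, with 12.82, 11.63 and 13.10 against 10.48, 10.10 and 10.62 in TugelaDn5 (4.34-fold, adjusted p = 0.0277). Tugela lay between at 11.28 ± 0.49, its repeat 3, at 11.72, being above TugelaDn1 repeat 2, and TugelaDn2 lay lowest at 9.77 ± 0.30. That call was lost in 7 of 25 alternatives, including those without TugelaDn1 repeats 1 or 3 (adjusted p = 0.1 and 0.0782) and without TugelaDn5 repeats 1, 2 or 3 (adjusted p = 0.0856, 0.101 and 0.0619).

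Only 28 of the 1158 calls could be given a gene, out of 1273 probe sets paired with 1 gene (2.2%, against 1.89% of all probe sets). They belonged to 25 genes: 13 probe sets of 11 genes were higher in TugelaDn1 and 15 of 14 genes higher in TugelaDn5. Genes with a name other than a LOC number were represented by 200 probe sets of 102 genes, of which 3 (1.5%) were called. These were GA20ox1d, RPS29 and tubb2, all higher in TugelaDn5.

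GA20ox1d encodes a gibberellin 20-oxidase, an enzyme of the late steps in the synthesis of gibberellins, the hormones that promote stem and leaf growth. Its probe set Ta.141.1.S1_x_at read 7.75, 7.91 and 7.16 in TugelaDn1 and 9.10, 9.03 and 9.58 in TugelaDn5. The line TugelaDn5 was higher in every repeat, by 3.1-fold (log2 -1.63 ± 0.32, SE, adjusted p = 0.0381). On Ta.141.1.S1_at, a second probe set of the gene, the values were 7.90, 8.55 and 8.28 against 9.50, 9.38 and 9.86, again without overlap, but it was not called (log2 -1.33, adjusted p = 0.0693).

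The gibberellin 20-oxidase genes GA20ox1a and GA20ox1b, named like GA20ox1d with another final letter, were not called but differed with the same sign. GA20ox1a read 6.55, 7.12 and 5.85 in TugelaDn1 and 8.03, 7.77 and 8.84 in TugelaDn5 (log2 -1.70, adjusted p = 0.0691). GA20ox1b read 7.37, 7.24 and 7.75 against 8.07, 8.60 and 9.55 (log2 -1.28, adjusted p = 0.252). The 4 probe sets of these genes thus ran from -1.70 to -1.28, with a median of -1.48 against 0.0 for all probe sets, and 1 of 4 was called. They may read each other's transcripts, so they need not be separate differences. Tugela lay between the lines on all 4, at 8.35 ± 0.46 on Ta.141.1.S1_x_at, 8.78 on Ta.141.1.S1_at, 7.49 for GA20ox1a and 8.30 for GA20ox1b. The call of GA20ox1d was lost in 11 of 25 alternatives: without each repeat of TugelaDn1 and TugelaDn5 in turn (adjusted p = 0.0628 to 0.116), without Tugela repeats 2 or 3 (adjusted p = 0.0512 and 0.0579) or TugelaDn2 repeat 2 (adjusted p = 0.0629), with only TugelaDn1 and TugelaDn5 in the fit (adjusted p = 0.0984) and with the repeat number as a block (adjusted p = 0.0973).

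Among tubulins, the subunits of microtubules, the beta-tubulin gene tubb2 was called. Its probe set Ta.1544.1.S1_at was bright, with 12.14, 12.31 and 11.59 in TugelaDn1 and 13.14, 13.08 and 12.84 in TugelaDn5 (2.01-fold, log2 -1.01 ± 0.19, SE, adjusted p = 0.0326). The lines did not overlap, and TugelaDn1 was the low line of the 4, since Tugela lay at 12.69 ± 0.13 and TugelaDn2 at 12.85 ± 0.03. This call was lost in 10 of 25 alternatives, including the omission of TugelaDn5 repeats 1, 2 or 3 (adjusted p = 0.112, 0.106 and 0.0516), TugelaDn1 repeat 1 (0.0706), Tugela repeats 1 or 2 (0.0518 and 0.0514) and TugelaDn2 repeats 1 or 2 (0.0565 and 0.0544).

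The beta-tubulin Tubb5 had log2 differences of -1.40, -0.68, -0.48 and -0.41 on its probe sets, none called (adjusted p = 0.238, 0.209, 0.503 and 0.616). The tubulins tubb1 and Tubb4 lay closer: tubb1 had 11.56 ± 0.08 against 11.44 ± 0.06 and Tubb4 had 12.77 ± 0.17 against 12.71 ± 0.23, both with overlapping repeats. The bright probe set of the alpha-tubulin TUBA had 13.61 ± 0.23 against 14.02 ± 0.02 (adjusted p = 0.221). With profilin, an actin-binding protein, 12 probe sets of this kind were measured, of which 8 were below 0 and 1 was called.

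RPS29, a protein of the small ribosomal subunit, was called on a dim probe set. Ta.24254.3.S1_x_at read 6.36, 5.53 and 6.31 in TugelaDn1 and 7.60, 7.34 and 7.18 in TugelaDn5 (2.47-fold, log2 -1.31 ± 0.26, SE, adjusted p = 0.0367), and TugelaDn2, at 7.26 ± 0.29, lay with TugelaDn5. A brighter probe set of RPS29, Ta.30687.2.S1_x_at, varied too widely to compare, with 9.22, 9.31 and 6.04 against 8.79, 7.15 and 9.74 (adjusted p = 0.931). The call was lost in 15 of 24 alternatives: it remained among single removals only without TugelaDn2 repeat 3, and its adjusted p was 0.0513 to 0.126 without any other repeat. With the floor raised to 7 its log2 difference was -0.37.

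Other genes of translation gave no call. The elongation factor TEF1 had, on Ta.659.2.S1_x_at, 15.42 ± 0.06 in TugelaDn1 and 15.60 ± 0.17 in TugelaDn5, and the cap-binding factor eIF4E had 11.96 ± 0.06 and 12.07 ± 0.24. The ubiquitin-conjugating enzyme gene UBC1 had 14.67 ± 0.06 and 14.70 ± 0.22 on Ta.2711.1.S1_x_at. For translation and protein turnover 14 probe sets of 10 genes had a median of -0.08, with 11 below 0 and 3 above. The largest value above 0 was that of PIMT, a protein repair methyltransferase, at 0.54 (9.40 ± 0.11 against 8.85 ± 0.21, adjusted p = 0.118).

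**Figure D4:**
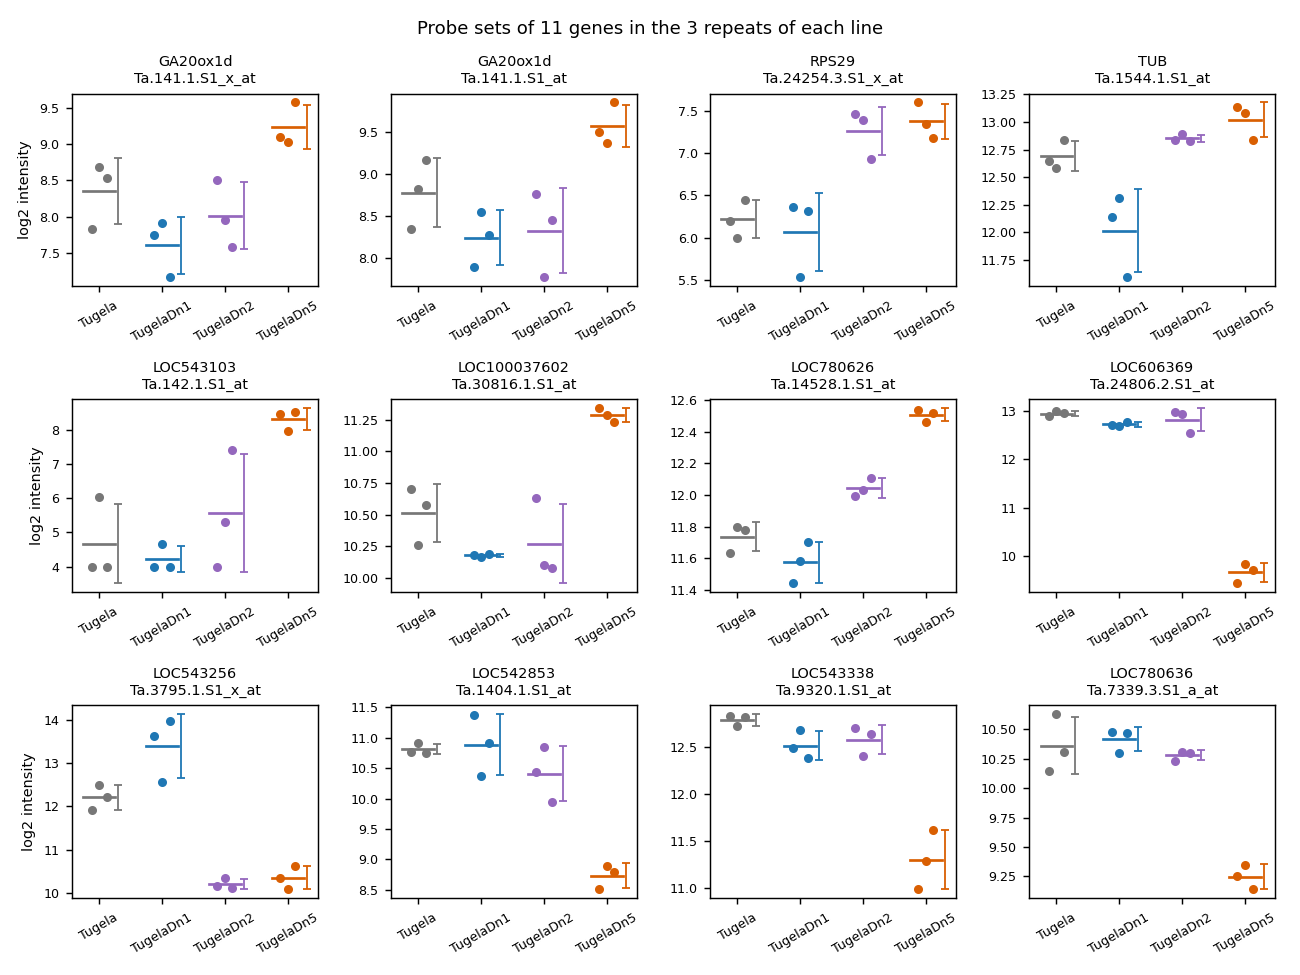
Log2 intensity of 12 probe sets of 11 genes in the 3 repeats (points) of each line, with the mean as a bar and the SD as a whisker beside it; each panel has its own y axis, which does not start at 0. The first 7 panels had the larger mean in TugelaDn5 and the last 5 in TugelaDn1, and all but the second panel were called; the panel headed TUB is tubb2.

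Of 37 probe sets of carbon fixation and photosynthesis, from 7 genes, 0 were called and 16 reached a level of 8. With 1.89% called over all probe sets, a count of 0 among so few is near the background, and this holds for the counts of 0 in the smaller groups that follow. The closest was PRK, phosphoribulokinase of the Calvin cycle, at 15.02 ± 0.35 in TugelaDn1 and 13.98 ± 0.22 in TugelaDn5, with no overlap (log2 1.04, 95% interval 0.51 to 1.57, adjusted p = 0.0636). PsbP of the oxygen-evolving complex had 14.59 ± 0.49 against 13.42 ± 0.17 on TaAffx.120874.1.S1_x_at (adjusted p = 0.0921) and 15.78 ± 0.30 against 15.19 ± 0.12 on Ta.85.1.S1_at (adjusted p = 0.181), both without overlap.

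The Calvin cycle phosphatase FBP had a log2 difference of 0.57 on its bright probe set (95% interval 0.23 to 0.91, adjusted p = 0.115), and the thioredoxin Trx-M one of 0.68 (adjusted p = 0.18). PsbO, the partner of PsbP, had 16.36 ± 0.30 against 16.29 ± 0.16, an interval of -0.36 to 0.50. The brightest rbcl probe sets differed by 0.02 and 0.10. Of the 37, 24 were above 0 and 12 below, with a median of 0.10 against 0.0 for all probe sets. Most of the 37 belonged to rbcl alone, some of them near the floor, so they were not separate differences. Some passed the threshold in alternatives, PRK and FBP in 6 of 25 each, PsbP in 4 and 2, the rbcl probe set TaAffx.128896.17.S1_s_at in 3 and Trx-M in 2.

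Among 12 probe sets of defence genes 0 were called. The pathogenesis-related thaumatin-like gene PR5 read 13.10, 13.81 and 14.18 in TugelaDn1 and 13.99, 13.60 and 9.89 in TugelaDn5. TugelaDn5 repeat 3 alone was low, and the interval of the log2 difference was wide, from -1.82 to 4.23. The lipid transfer protein gene LTP3 had 8.64 ± 0.48 against 7.17 ± 0.31 on Ta.1282.4.S1_at, with no overlap (log2 1.48, adjusted p = 0.113, called in 4 of 25 alternatives), and 14.89 ± 0.06 against 14.70 ± 0.23 on the brighter Ta.1282.1.S1_x_at. The xylanase inhibitor gene xip had 14.71 ± 0.06 against 14.57 ± 0.07 on its brighter probe set.

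Thionins, small antimicrobial peptides, were dim: THI1.1 had 4.53 ± 0.58 against 6.06 ± 0.67 on Ta.23967.1.S1_s_at (adjusted p = 0.127) and 4.92 ± 1.12 against 4.83 ± 0.97 on the other. COMT1, a methyltransferase of lignin synthesis, had 12.03 ± 0.43 against 11.89 ± 0.24. GLU1A, a glucosidase that releases benzoxazinoid toxins, had 7.15 ± 0.73 against 7.03 ± 1.44. The 12 probe sets of defence proteins had a median of 0.12, and the 10 of enzyme inhibitors and serpins, none of which reached a level of 8, one of 0.08.

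Of the enzymes that handle reactive oxygen, glutathione and metals, 0 of 17 probe sets were called, again with 1.89% called over all. Catalase CAT1, which breaks down hydrogen peroxide, had 14.21 ± 0.34 in TugelaDn1 against 13.50 ± 0.11 in TugelaDn5, without overlap (log2 0.71, adjusted p = 0.126). The phytosiderophore enzyme gene DMAS1 had log2 differences of -0.50, -0.15 and -0.14 on its bright probe sets. Glutathione transferase GSTZ1 had -0.39, -0.14 and -0.07.

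The largest difference among uncalled named genes at a level of 8 with the larger value in TugelaDn1 was that of ALMT1, a malate transporter known from aluminium tolerance, with 10.65 ± 0.60 against 8.99 ± 0.55 (log2 1.65, 95% interval 0.66 to 2.64, adjusted p = 0.114). PEAMT1, a methyltransferase of choline synthesis, had 11.77 ± 0.56 against 10.63 ± 0.15 (log2 1.15, adjusted p = 0.189), with Tugela at 9.80 and TugelaDn2 at 9.87, below both. The proton pump gene ha1 had differences of 0.06, 0.17 and 0.26. Among sugar, starch and fructan enzymes 0 of 15 were called, with GAPN, a glycolytic dehydrogenase, at 0.67 (adjusted p = 0.156).

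Seed storage proteins, which a leaf should lack, were dim in both lines apart from 1 probe set of ALP, an avenin-like protein gene. That was Ta.27777.1.S1_at, at 13.04 ± 0.16 against 13.35 ± 0.02, whereas Ta.27712.1.S1_at of the same gene had 4.0 ± 0.0 against 5.04 ± 0.94. Of the 17 probe sets of seed storage proteins 1 reached a level of 8 and 0 were called. Histones and chromatin had 0 of 20 called, with the high-mobility-group gene Hmgb3 at -0.51 and -0.34 (adjusted p = 0.148 and 0.236). The 7 probe sets of the histone gene wcH2B-8 among them were all dim and had log2 differences of -0.86 to 0.33, but other probe sets of the same cluster, Ta.7378, were called. Cold, dehydration and late embryogenesis proteins had 0 of 10 called and 0 at a level of 8.

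**Figure D5:**
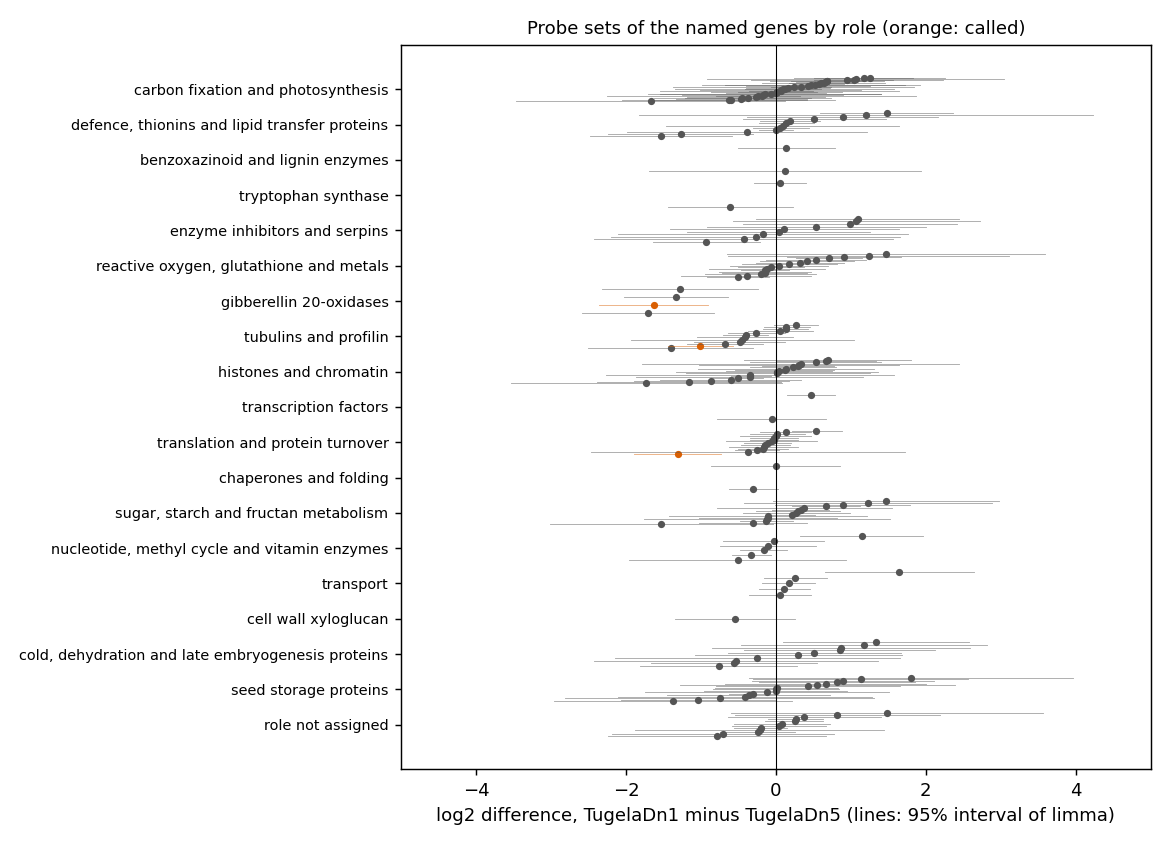
Log2 difference, TugelaDn1 minus TugelaDn5, of the 200 probe sets of the 102 named genes, grouped by role, with the 95% confidence interval of limma as a line. The 3 called probe sets are orange. All 4 gibberellin 20-oxidase probe sets are below 0, and 24 of 37 of photosynthesis are above it. Most of these 37 belong to rbcl alone, and 16 reached a level of 8.

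Of the genes known only by a LOC number, for which no function was given in the tables used, LOC606369 had the call with the smallest p. On Ta.24806.2.S1_at it read 12.71, 12.68 and 12.78 in TugelaDn1 and 9.44, 9.84 and 9.72 in TugelaDn5 (8.32-fold, log2 3.06 ± 0.16, SE, adjusted p = 1.69e-05), while Tugela, at 12.95 ± 0.05, and TugelaDn2, at 12.82 ± 0.24, lay with TugelaDn1. Its call was kept in all 25 alternatives. The other probe sets of the gene did not show a difference of this size: Ta.24806.1.S1_x_at had 13.09 ± 0.07 against 12.36 ± 0.14 (log2 0.73, adjusted p = 0.0489), Ta.24806.2.S1_a_at had 11.82 ± 0.12 against 11.46 ± 0.08 (adjusted p = 0.465) and Ta.24806.3.S1_at had 12.68 ± 0.19 against 13.02 ± 0.14 (log2 -0.34, adjusted p = 0.413). The call of Ta.24806.1.S1_x_at was lost in 16 of 25 alternatives, including every omission of a single repeat other than TugelaDn2 repeat 3 (adjusted p = 0.052 to 0.146).

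LOC543256 read 13.63, 12.57 and 13.98 in TugelaDn1 and 10.34, 10.09 and 10.62 in TugelaDn5 (8.24-fold, log2 3.04 ± 0.33, SE, adjusted p = 0.00152). TugelaDn2, at 10.20 ± 0.12, was as low as TugelaDn5, with Tugela at 12.20 ± 0.29. LOC542853 read 11.37, 10.37 and 10.91 against 8.51, 8.90 and 8.80 (4.43-fold, adjusted p = 0.0051), here with Tugela and TugelaDn2 near TugelaDn1 at 10.81 ± 0.09 and 10.41 ± 0.45. Both calls were lost only with TugelaDn1 and TugelaDn5 alone in the fit (adjusted p = 0.0637 each).

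LOC542812 was high in TugelaDn1 alone, with 10.98, 11.54 and 11.25 against 9.13, 10.04 and 10.14 in TugelaDn5 (2.8-fold, adjusted p = 0.0281), 9.76 ± 0.16 in Tugela and 9.96 ± 0.23 in TugelaDn2. Its call was lost in 6 of 25 alternatives. These were the omission of TugelaDn1 repeats 1, 2 or 3 (adjusted p = 0.0526, 0.0872 and 0.0742) or TugelaDn5 repeat 2 (0.0538), centring of arrays on the median (0.0511) and a fit of TugelaDn1 and TugelaDn5 alone (0.168). LOC543338 was called on both of its probe sets, at 12.52 ± 0.15 against 11.30 ± 0.32 and 12.54 ± 0.23 against 11.42 ± 0.31 (adjusted p = 0.00905 and 0.0228). The call of the second was lost in 7 of 25 alternatives, including the omission of TugelaDn1 repeats 1 or 2 or TugelaDn5 repeats 1 or 2 (adjusted p = 0.0662 to 0.0773). With only TugelaDn1 and TugelaDn5 in the fit both calls were lost (adjusted p = 0.0989 and 0.132). LOC780636 had 10.42 ± 0.10 against 9.25 ± 0.11 on Ta.7339.3.S1_a_at (2.25-fold, adjusted p = 0.00386), a call kept in all 25 alternatives, and 0.78 and 0.85 on 2 others that were not called (adjusted p = 0.17 and 0.27).

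The other genes higher in TugelaDn1 were LOC100037531 (log2 1.17), LOC542814 (0.87), LOC542980 (0.79), LOC543297 (0.73) and LOC542918 (0.67), with adjusted p of 0.0265 to 0.0447. These 5 calls were less firm, each being lost in 9 to 16 of 25 alternatives. All 5 were lost without TugelaDn1 repeat 1 (adjusted p = 0.0688 to 0.131) and without TugelaDn5 repeat 2 (adjusted p = 0.0867 to 0.137), and the removal of each of the 12 repeats lost at least 1 of them. LOC542814 had a second probe set, Ta.1868.3.S1_a_at, at 9.37 ± 0.45 against 9.24 ± 0.35. Ta.1082.3.S1_x_at, Ta.11.2.S1_a_at and Ta.9402.1.S1_x_at share all but the ending of their names with called probe sets of LOC100037531, LOC543297 and LOC542918. They were not called in the main fit but were in 6, 9 and 6 of 25 alternatives.

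On the side of TugelaDn5 the largest difference with a gene was that of LOC543103, which read 4.0, 4.65 and 4.0 in TugelaDn1 and 8.49, 7.97 and 8.54 in TugelaDn5 (at least 17.4-fold, log2 -4.12 ± 0.81, SE, adjusted p = 0.0367). It was dim in Tugela, at 4.68 ± 1.17, and spread in TugelaDn2, at 5.58 ± 1.73. The call was lost in 10 of 24 alternatives, including the omission of each TugelaDn1 and TugelaDn5 repeat (adjusted p = 0.0776 to 0.117), of Tugela repeats 1 or 3 (0.0534 and 0.0538) or of TugelaDn2 repeat 2 (0.0607), and a floor of 7 left a log2 difference of -1.33.

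LOC100037602 was called on Ta.30816.1.S1_at, with 10.18, 10.17 and 10.19 against 11.34, 11.29 and 11.23 (2.15-fold, adjusted p = 0.0147), and on Ta.30816.1.S1_s_at, with 12.01 ± 0.18 against 13.09 ± 0.06 (2.11-fold, adjusted p = 0.00907). Its other probe sets had log2 differences of -1.24 and -0.60 and were not called. The call of Ta.30816.1.S1_at was lost without TugelaDn1 repeat 1, TugelaDn5 repeat 1 or TugelaDn5 repeat 2 (adjusted p = 0.0517, 0.0593 and 0.0533). That of Ta.30816.1.S1_s_at was lost only with TugelaDn1 and TugelaDn5 alone in the fit (adjusted p = 0.0536). LOC780626 had 11.57 ± 0.13 against 12.51 ± 0.04 (1.91-fold, adjusted p = 0.00482), with TugelaDn2 between at 12.04 ± 0.06, and LOC543171 had 14.06 ± 0.10 against 14.79 ± 0.04 on Ta.28321.2.S1_x_at (1.65-fold, adjusted p = 0.0124). Both of these calls were kept without any single repeat. They were lost with only TugelaDn1 and TugelaDn5 in the fit (adjusted p = 0.0548 and 0.0803). A second probe set of each was not called: Ta.14528.1.S1_s_at of LOC780626 had a log2 difference of -0.41 (adjusted p = 0.236), and Ta.28321.1.S1_a_at of LOC543171, the brighter one, had 14.81 ± 0.15 against 14.99 ± 0.11 with overlapping repeats (adjusted p = 0.641).

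LOC542999 was 2.1-fold higher in TugelaDn5 on Ta.14632.1.S1_x_at (adjusted p = 0.0433) and had a log2 difference of -1.52 on Ta.14632.1.S1_at (adjusted p = 0.0568). LOC542912, LOC606336, LOC606341, LOC606340, LOC542770 and LOC606335 had log2 differences of -0.88, -0.70, -0.69, -0.66, -0.65 and -0.64 (adjusted p = 0.0228 to 0.0471). These 7 calls were lost in 7 to 15 of 25 alternatives. All 7 were lost without TugelaDn1 repeat 1 (adjusted p = 0.0706 to 0.139) and without TugelaDn5 repeat 1 (adjusted p = 0.074 to 0.144), and again each of the 12 removals lost at least 1. LOC606340 was read by many bright probe sets, of which Ta.27765.4.S1_x_at had 13.03 ± 0.06 against 13.06 ± 0.11 and Ta.27765.6.S1_x_at had 13.01 ± 0.12 against 13 ± 0.07. Its Ta.27765.3.S1_x_at had a log2 difference of -0.46 and was not called (adjusted p = 0.137). For LOC606341, Ta.23202.1.S1_at had -0.31 (adjusted p = 0.375). For LOC606335, Ta.28712.1.S1_x_at had -0.56 (adjusted p = 0.143).

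Probe sets whose names share the leading number read sequences of 1 transcript cluster. The 1158 calls fell into 1068 clusters, of which 78 held 2 or more calls. In 254 clusters a call stood beside at least 1 other probe set at a level of 8 or more: in 38 all of these were called, and in 118 at least 1 uncalled probe set differed by less than 0.5 log2. Of clusters holding a probe set bright in 1 line and dark in the other, Ta.14507, Ta.13670 and Ta.21998 were among these 118. Clusters Ta.7259, Ta.900, TaAffx.55074 and TaAffx.128836 were among the 38. The examples that follow were chosen after their values were seen.

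Cluster Ta.7259 differed on every probe set that is named here. Ta.7259.1.S1_a_at read 12.62, 12.60 and 12.71 in TugelaDn1 and 4.0, 4.83 and 5.03 in TugelaDn5 (at least 260-fold, log2 8.02 ± 0.31, SE, adjusted p = 2.72e-06). Ta.7259.1.S1_at, Ta.7259.2.S1_a_at and Ta.7259.3.S1_x_at were higher in TugelaDn1 by at least 169-fold, 60.5-fold and 16.5-fold (adjusted p = 5.06e-05, 9.03e-05 and 0.000697). Tugela and TugelaDn2 lay with TugelaDn1 on all 4, for example at 12.81 ± 0.09 and 12.41 ± 0.55 on the first. Cluster Ta.21069 behaved alike at high levels, with log2 differences of 2.68, 2.76, 1.74 and 2.81 on Ta.21069.1.S1_a_at, Ta.21069.1.S1_x_at, Ta.21069.2.S1_a_at and Ta.21069.3.S1_x_at, all called.

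Cluster Ta.7378, to which the dim wcH2B-8 probe sets also belong, held 5 calls, the most of any cluster, all higher in TugelaDn5. The tables used give no gene for these 5. Ta.7378.30.S1_x_at read 7.28, 7.41 and 7.18 in TugelaDn1 and 9.12, 9.45 and 9.55 in TugelaDn5 (4.23-fold, log2 -2.08 ± 0.15, SE, adjusted p = 0.000125), and Tugela and TugelaDn2 lay near TugelaDn1 at 7.79 ± 0.10 and 7.49 ± 0.14. Its call was kept in every alternative. Ta.7378.28.S1_x_at had 5.28 ± 0.45 against 8.52 ± 0.19 (9.42-fold, adjusted p = 0.0204).

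Smaller differences were called for Ta.7378.16.S1_x_at (1.86-fold), Ta.7378.12.S1_at (1.81-fold) and Ta.7378.12.S1_x_at (1.78-fold), with adjusted p of 0.0165 to 0.0217. The calls other than that of Ta.7378.30.S1_x_at were less firm, since leaving out each repeat of TugelaDn1 or TugelaDn5 lost at least 1 of the 4 (adjusted p = 0.0512 to 0.0795). In all, 15 probe sets of the cluster were at a level of 8 or more, and of the 10 that were not called 5 differed by less than 0.5 log2.

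In 4 clusters, calls ran in both directions. Ta.20421.1.S1_at read 14.17, 14.21 and 13.85 in TugelaDn1 and 10.48, 9.98 and 10.92 in TugelaDn5 (12.3-fold higher in TugelaDn1, adjusted p = 4.89e-05). Ta.20421.2.A1_at of the same cluster read 6.54, 7.20 and 5.35 against 9.13, 8.83 and 9.41 (6.78-fold higher in TugelaDn5, adjusted p = 0.0362), a call lost without any single TugelaDn5 repeat, TugelaDn1 repeats 1 or 3, Tugela repeat 2 or TugelaDn2 repeat 1 (adjusted p = 0.0558 to 0.11).

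In cluster Ta.20909, Ta.20909.2.S1_x_at was 9.68-fold higher in TugelaDn1 (11.28 ± 0.24 against 8.0 ± 0.24, adjusted p = 3.3e-05) and Ta.20909.2.S1_s_at at least 22.8-fold, whereas Ta.20909.3.S1_x_at was 1.76-fold higher in TugelaDn5 (11.61 ± 0.16 against 12.42 ± 0.10, adjusted p = 0.0204). That last call was lost without TugelaDn1 repeats 2 or 3 or TugelaDn5 repeats 1 or 3 (adjusted p = 0.0533 to 0.0791). The brightest of the cluster, Ta.20909.1.S1_a_at, had 14.46 ± 0.07 against 14.74 ± 0.06 and was not called (adjusted p = 0.36). In cluster Ta.5479, Ta.5479.1.A1_x_at was 2.25-fold higher in TugelaDn1 and Ta.5479.2.A1_at at least 11.5-fold higher in TugelaDn5 (adjusted p = 0.0158 and 0.017). In cluster Ta.10329, Ta.10329.23.S1_at was 5.27-fold higher in TugelaDn1 and Ta.10329.12.S1_x_at 2.01-fold higher in TugelaDn5 (adjusted p = 0.0043 and 0.0101). These were the only 2 calls among 18 probe sets of cluster Ta.10329 at a level of 8 or more. Of the 16 not called, 13 differed by less than 0.5 log2. The call of Ta.5479.1.A1_x_at was lost without TugelaDn1 repeats 2 or 3 or TugelaDn5 repeat 1 (adjusted p = 0.0519, 0.0504 and 0.065), and that of Ta.5479.2.A1_at without TugelaDn1 repeat 1 or TugelaDn5 repeats 2 or 3 (adjusted p = 0.0549, 0.0509 and 0.0601). Probe sets of 1 cluster can read different gene copies of hexaploid wheat or different parts of 1 transcript, which cannot be told apart here.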

How the data were processed

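Leaf RNA of 4 wheat lines was measured on 13 single-colour Affymetrix wheat arrays. The authors deposited linear intensity values per probe set, scaled so that the mean without the outer 2% of values was 500.1 on every array; no source used here names the summarising software. Of 61290 probe sets, 111 controls were removed, intensities were floored at 16 and log2 was taken. The 2 arrays of TugelaDn5 repeat 3, with the same source name, were averaged on the log2 scale.

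TugelaDn1 minus TugelaDn5 was tested by eBayes of limma 3.58.1 (R 4.3.3) after lmFit and contrasts.fit, with all 12 repeats of the 4 lines in 1 fit (8 residual and 1.45 prior degrees of freedom) and no covariate. P-values were adjusted by Benjamini-Hochberg over all 61179 probe sets, and every adjusted p printed is from this fit unless an alternative is named. The labels call the repeats biological. No scan date or other batch was given. The number of arrays limits the precision. Tables and plots were made with pandas 2.3.3 and matplotlib 3.10.9 in Python 3.11.15.

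The platform's probe table paired 1273 probe sets with 1 gene and left 59906 unnamed, and 770 of 771 genes were found in the RefSeq gene table, which updated names. Named were the called probe sets with a gene, at most 15 in each direction. Other probe sets of these genes were named too, but not every one is printed. Also named were the 2 largest called differences without a gene in each direction at a level of 8 or more, and members of gene lists. The lists fixed by name patterns held few genes, so a division of all 102 named genes by role, made after the files were seen, was used. Members and lists were chosen with earlier results of these data known. Names ending in _a_at, _s_at or _x_at mark probe sets that can share probes with other transcripts. Where repeats lay at the floor, a fold is a lower bound. Other floors, scalings, fits and removals of single repeats were tried.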

Additional observations from a re-analysis of the deposited data

How the results depend on the processing

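Of 25 alternatives, 223 of the 1158 calls were kept in every one, and 496 (367 higher in TugelaDn1, 129 higher in TugelaDn5) without any single repeat. Alternatives limited to brighter probe sets left some calls untested, among them the 251 below level 8 in both lines. Untested calls counted as not kept in the 223. No named probe set that was called changed sign. Of 227 named probe sets that were not called, 33 were called in at least 1 alternative. The 1158 calls became 1889 with the log2 floor raised from 4 to 5, 1955 with a floor of 6, 2255 under eBayes with trend and robust, 491 with only TugelaDn1 and TugelaDn5 in the fit, 1938 among probe sets above the median level and 2704 among those at 8 or more in either line, adjusted over these alone, of which 50.9% were higher in TugelaDn1. The set at 8 or more in either line was chosen with the means that are compared, so its 2704 calls are a description. Leaving out single repeats gave 684 to 1249. The 907 calls at a level of 8 or more became 1547, 1675 and 1480 with floors of 5, 6 and 7, 1984 under trend and robust, 325 with both lines alone, 1667 above the median level and 2704 adjusted over these alone, and 480 to 965 without single repeats. Centring arrays on the median shifted the median difference to -0.06.

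With the repeat number as a replicate block, 768 probe sets were called, and 593 at a level of 8 or more. The labels do not say whether same-numbered repeats share more than a number. For TugelaDn1 and TugelaDn5, the deviations of same-numbered repeats from the line means correlated at -0.03, -0.07 and -0.07. Over all pairs of lines these correlations ran from -0.11 to 0.14, and those of different-numbered repeats from -0.14 to 0.16. Of the 28 called probe sets with a gene, 10 were called with the block, 14 with centring, 17 with log2 of intensity plus 16 and 4 with both lines alone in the fit. The fit of all 13 arrays with the repeat as a random block could not be made, because a single repeated hybridisation leaves the correlation without an estimate in limma.

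Differences of dim probe sets have wide intervals, and where repeats lie at the floor their fold is a lower bound.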
